A study of Homo sapiens with 12 samples.

Results

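The 10 genes described here serve glucose uptake, glycolysis and the cell's answer to low oxygen. They were taken by symbol from the 60609 genes of the deposited files, and they are SLC2A1, HK2, ALDOA, ALDOC, PGK1, LDHA, PDK1, BNIP3, VEGFA and CA9. Levels are in TPM, a measure that divides reads by transcript length and scales every library to the same sum. The 9 genes other than CA9 reached a TPM of 1 in 12 of 12 libraries and were tested. CA9 reached it in 0 libraries and is described by its values.

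The libraries were made from polyadenylated RNA of NS-SV-AC, an established human salivary acinar line immortalised with simian virus DNA and grown for 48 h. All 12 libraries come from this line, and they form 6 groups of 2 replicates. Cells received 2-CM (2'-C-methyladenosine, an adenosine analogue), RES (resveratrol, a plant polyphenol) or DMSO, the solvent, 24 h before transfection and again with it, the compounds at 20 μm, read here as micromolar. Transfection lasted 14 h and used poly I:C, which mimics viral double-stranded RNA, or depc, as the control is labelled. The groups are DMSO depc, DMSO poly I:C, 2-CM depc, 2-CM poly I:C, RES depc and RES poly I:C. Nothing in the labels says that replicates were separate cultures, so p-values measure the spread between these samples, which may be technical.

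In glycolysis, glucose enters through carriers such as SLC2A1 (GLUT1), is phosphorylated by hexokinases and split by aldolases, and is turned into pyruvate and lactate. When oxygen is low, hydroxylation of the HIF alpha subunits slows, HIF1 accumulates, and it binds short RCGTG elements near its targets. Genes for glucose carriers, glycolytic enzymes, PDK1, BNIP3, VEGFA and CA9 are textbook HIF1 targets. None of these groups was labelled as hypoxic, and HIF protein was not measured.

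The windows below show where the core of the hypoxia response element is spelled near start sites. They belong to the 5 members with a window at hand that passed the test in a comparison of poly I:C with depc. They run from 250 bases before to 50 bases after a RefSeq start, on GRCh38.p14, and capitals mark every ACGTG or GCGTG on either strand (CACGT and CACGC when read from the other strand).
ALDOC, chr17:28576846-28577145, minus strand: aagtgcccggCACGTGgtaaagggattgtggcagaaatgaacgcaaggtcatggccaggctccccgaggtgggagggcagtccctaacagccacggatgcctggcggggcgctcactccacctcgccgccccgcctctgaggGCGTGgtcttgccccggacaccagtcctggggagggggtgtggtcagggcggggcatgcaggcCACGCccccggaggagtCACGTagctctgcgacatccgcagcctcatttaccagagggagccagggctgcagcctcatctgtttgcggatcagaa
PGK1, chrX:78103998-78104297, plus strand: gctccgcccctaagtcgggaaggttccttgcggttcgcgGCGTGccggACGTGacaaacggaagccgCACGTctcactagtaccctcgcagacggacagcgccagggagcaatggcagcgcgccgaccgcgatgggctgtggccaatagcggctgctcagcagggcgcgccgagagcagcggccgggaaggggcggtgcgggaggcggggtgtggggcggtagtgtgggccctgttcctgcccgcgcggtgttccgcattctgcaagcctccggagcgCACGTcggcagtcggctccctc
BNIP3, chr10:131981874-131982173, minus strand: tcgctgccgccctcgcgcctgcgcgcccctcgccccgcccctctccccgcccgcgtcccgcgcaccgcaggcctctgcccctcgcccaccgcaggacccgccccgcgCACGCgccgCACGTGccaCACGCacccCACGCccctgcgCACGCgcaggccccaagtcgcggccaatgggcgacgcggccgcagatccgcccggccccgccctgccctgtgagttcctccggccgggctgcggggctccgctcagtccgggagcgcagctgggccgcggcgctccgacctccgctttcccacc
ALDOA, chr16:30065510-30065809, plus strand: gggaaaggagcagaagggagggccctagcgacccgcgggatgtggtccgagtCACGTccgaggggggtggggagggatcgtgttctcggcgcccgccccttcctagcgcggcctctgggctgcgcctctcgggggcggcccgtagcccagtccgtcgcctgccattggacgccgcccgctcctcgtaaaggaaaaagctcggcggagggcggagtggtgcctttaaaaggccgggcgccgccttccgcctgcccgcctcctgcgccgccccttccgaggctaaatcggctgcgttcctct
SLC2A1, chr1:42958819-42959118, minus strand: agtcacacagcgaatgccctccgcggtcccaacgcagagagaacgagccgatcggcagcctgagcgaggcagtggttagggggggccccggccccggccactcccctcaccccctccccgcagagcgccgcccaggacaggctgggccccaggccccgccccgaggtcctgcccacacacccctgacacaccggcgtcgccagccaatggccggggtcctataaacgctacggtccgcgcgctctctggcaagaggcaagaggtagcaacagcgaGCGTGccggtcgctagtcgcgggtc
Of the 10 members, 9 had 14 windows in all, and 11 of the 14 windows, from 8 genes, held ACGTG. Among all 35116 windows of the same length, 21.4% held ACGTG, 36.5% held GCGTG and 48.4% held either. ALDOC held ACGTG 3 times, PGK1 3 times and BNIP3 2 times, the CACGTG palindrome being counted once on each strand. The third ALDOA window, near the start of the transcripts that led in these cells, held it once. The SLC2A1 window held no ACGTG and 1 GCGTG. VEGFA also passed, but the windows at hand held none for it, so it is named only.

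The libraries held 3.72 to 6.002 gigabases of aligned sequence on annotated transcripts. Replicates differed along a common axis that held 77.6% of the variance within groups. Markers chosen but without values were KRT5, KRT14 and KRT19 (epithelial), MUC7 (acinar), and PTPRC and CD3E (leucocyte). Of the 3 epithelial markers with values, KRT18, a keratin, was at 466 to 1571 TPM, while EPCAM was at 0.0869 to 1.23 TPM and CDH1 at 0.189 to 0.596 TPM. Among acinar markers, the acinar water channel AQP5 and the salivary protein gene PRB1 were listed at 0 and the acinar factor BHLHA15 stayed at 0.507 to 2.69 TPM. Among 5 fibroblast markers COL1A1 was at 15.9 to 100.3 TPM and DCN at 0.584 to 18.0 TPM, but COL1A2, PDGFRA and THY1 were at most at 0.0193, 0.0813 and 0.750 TPM. The myoepithelial gene ACTA2 was at 13.5 to 28.6 TPM, and the sum of 3 such markers was 25.5 to 31.2 TPM in DMSO depc and 16.4 to 20.2 TPM in DMSO poly I:C, 32.9 to 34.1 and 25.6 to 30.1 TPM with 2-CM, and 36.7 to 37.7 and 26.8 to 32.9 TPM with RES. The monocyte gene CD14 was at 7.05 to 15.8 TPM. The 3 endothelial markers summed to at most 0.258 TPM. The epithelial sum, nearly all KRT18, was 1010 to 1069 TPM in DMSO depc and 469 to 646 TPM in DMSO poly I:C, 1449 to 1572 and 580 to 629 TPM with 2-CM, and 692 to 905 and 468 to 577 TPM with RES. The fibroblast sum was 70.8 to 74.6 TPM in DMSO depc and 23.7 to 30.3 TPM in DMSO poly I:C, 89.6 to 104 and 59.4 to 59.6 TPM with 2-CM, and 52.0 to 56.8 and 27.7 to 31.5 TPM with RES. The part of these shifts in the results below was not tested. In such bulk samples, fewer cells of a type and less RNA per cell cannot be told apart.

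Fold changes below are from limma on log2(TPM + 1) over 17185 genes, which understates changes of low genes, and calls need a Benjamini-Hochberg adjusted p under 0.05. The median over all genes with poly I:C was -0.14 in DMSO cells, 0.61 in 2-CM cells and -0.03 in RES cells. Median-of-ratios scaling moved the 2-CM median to 0.03, and the calls under 2-CM went from 6440 higher and 2035 lower to 3482 higher and 4046 lower. With 2-CM, the fold change also followed GC content. Among genes within 1 GC point of a member, the median ran from -0.36 for ALDOA (57.3% GC) to 1.67 for PDK1 (40.2% GC). The part of GC content in the members' values was not tested beyond the corrected values given beside them, in which a regression on GC was removed from each library and the median of all genes stayed at 0.62 under 2-CM.

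Poly I:C changed 1 of the 9 tested members under DMSO, ALDOC, which rose, where 4.08% of all genes were called. Under 2-CM, 4 were called, BNIP3 and VEGFA higher and ALDOA and SLC2A1 lower, where 49.3% of all genes were called, so the members' share was near the background. All 4 of these calls were lost when any single 2-CM library was left out, with adjusted p-values of 0.0792 to 0.154. Under RES, 0 were called by limma, where 0.442% of all genes were. There 3 members (ALDOA, SLC2A1 and PGK1) had an unadjusted p under 0.05, as had 2409 of all 17185 genes. Averaged over the 3 compounds 5 were called, PGK1, BNIP3 and VEGFA higher and ALDOA and SLC2A1 lower, against 31.2% of all genes. Over the members, the median log2 fold change came to 0.54 in DMSO, 0.76 in 2-CM and -0.09 in RES. The members did not share a direction: ALDOA and SLC2A1 were lower with poly I:C under every compound, and BNIP3 and LDHA had values above 0 under every compound, under each scaling tried. Under RES, leaving out 1 library took LDHA to between -0.20 and 1.27 and BNIP3 to between -0.05 and 1.27, so those signs rest on single libraries. The TPM of the poly I:C and depc libraries did not overlap for 5 of the 9 under DMSO, 9 under 2-CM and 4 under RES, where 44.9%, 86.6% and 30.2% of all genes did not.

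**Figure D1:**
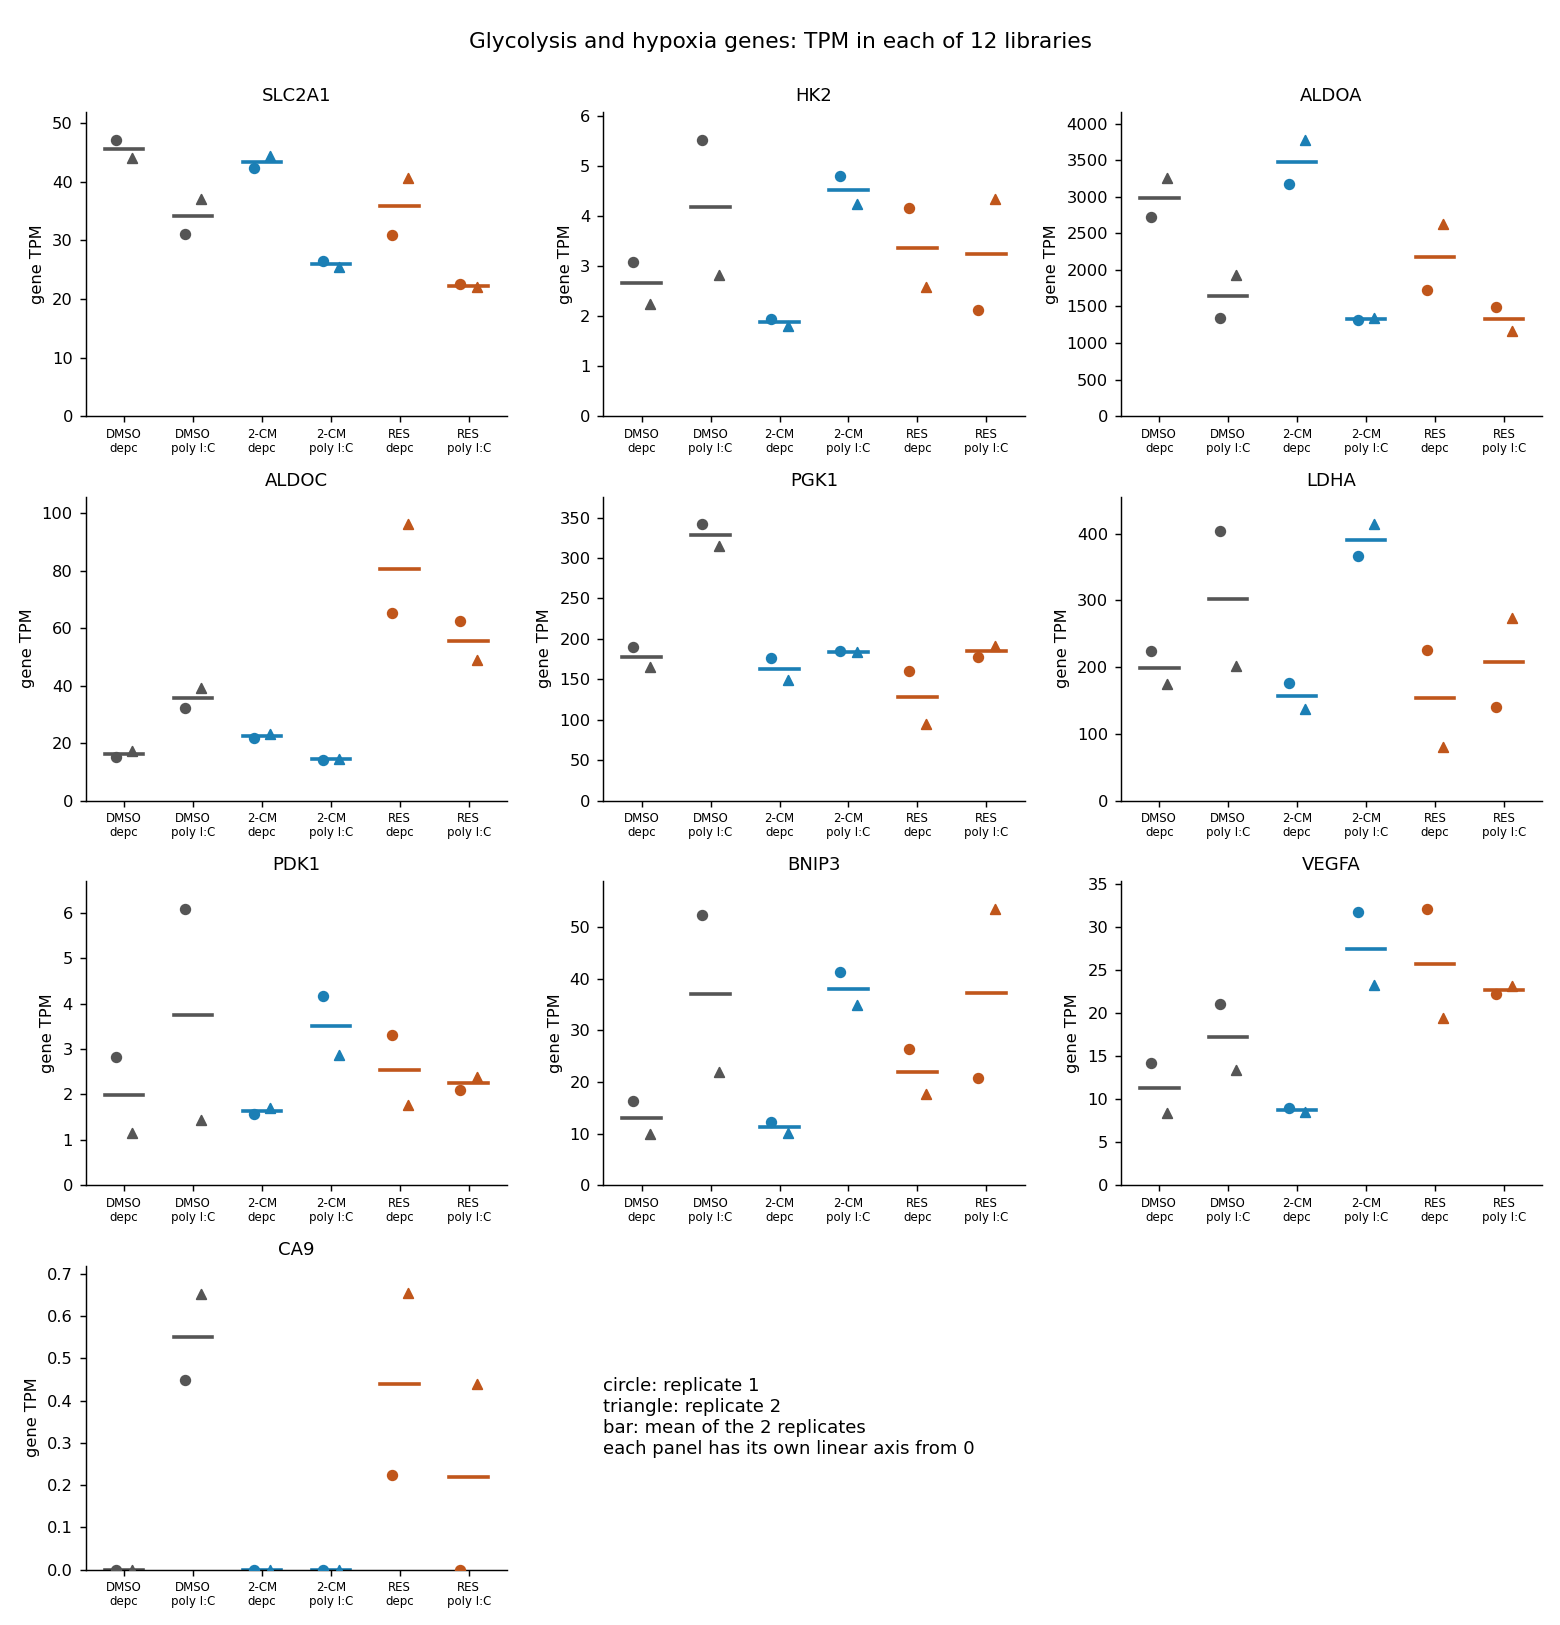
Gene TPM of the 10 members in each of the 12 libraries (y axis, linear from 0, one panel a gene) for the 6 groups (x axis). Circles are replicate 1, triangles replicate 2 and bars the mean of both; ALDOA reaches 3777 TPM, ALDOC is highest in the RES libraries, and CA9 stays at or under 0.654 TPM.

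SLC2A1 encodes the basal glucose carrier of most cells. It was at 47.2 and 44.1 TPM in the DMSO depc libraries, against 31.1 and 37.1 TPM in DMSO poly I:C. With 2-CM it was at 42.3 and 44.4 TPM with depc, against 26.5 and 25.5 TPM with poly I:C. With RES it was at 30.9 and 40.7 TPM with depc, against 22.6 and 22 TPM with poly I:C. Both poly I:C libraries lay below both depc libraries under each compound. The fall was called under 2-CM (log2 fold change -0.72, SE 0.19, adjusted p = 0.0281, 1.67-fold lower) and averaged over compounds (-0.59, SE 0.11, adjusted p = 0.00644), with values of -0.41 (adjusted p = 0.267) under DMSO and -0.65 (adjusted p = 0.179) under RES. With GC content regressed out, the 2-CM value was -0.20 (adjusted p = 0.349) and the averaged value -0.35 (adjusted p = 0.0378), whereas median-of-ratios scaling gave -1.54 under 2-CM.

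HK2, the hexokinase isoform held at the outer mitochondrial membrane in many growing cells, was a low gene at 1.80 to 5.52 TPM. It was at 3.07 and 2.24 TPM in DMSO depc against 5.52 and 2.82 TPM in DMSO poly I:C, and these groups overlapped. With 2-CM it was at 1.95 and 1.80 TPM with depc, against 4.81 and 4.24 TPM with poly I:C, without overlap. With RES the values were 4.16 and 2.57 TPM with depc and 2.11 and 4.34 TPM with poly I:C, again overlapping. The 2-CM difference of 0.94 (SE 0.35) had an adjusted p of 0.0528, and HK2 was called in no comparison by the limma fit of group means alone. With a library left out it was called in 6 of 12 fits under 2-CM (lowest adjusted p 0.0404) and in 1 of 12 on average. Median-of-ratios scaling gave 0.31 under 2-CM, and GC correction gave 1.29 with an adjusted p of 0.0411, past the threshold.

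The aldolases split fructose bisphosphate. ALDOA, the muscle and general isoform, was the most abundant member, with a mean of 2155 TPM over the libraries. It was at 2725 and 3252 TPM in DMSO depc, against 1342 and 1935 TPM in DMSO poly I:C. With 2-CM it was at 3178 and 3777 TPM with depc, against 1310 and 1339 TPM with poly I:C. With RES it was at 1725 and 2625 TPM with depc, against 1494 and 1160 TPM with poly I:C. As for SLC2A1, every poly I:C library lay below every depc library of its compound. The fall was called under 2-CM (-1.39, SE 0.25, adjusted p = 0.0237, 2.63-fold lower) and on average (-0.99, SE 0.14, adjusted p = 0.00304); the values under DMSO and RES were -0.89 (adjusted p = 0.0862) and -0.69 (adjusted p = 0.264). With GC content regressed out the DMSO value passed (-0.65, adjusted p = 0.00776), and the averaged value was -0.50 (adjusted p = 0.000588). The 2-CM value so corrected was -0.48 (adjusted p = 0.0161), and with median-of-ratios scaling it was -2.24.

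ALDOC, the aldolase best known from brain, had TPM that lay higher with poly I:C under DMSO and lower under 2-CM and RES, though the sign under 2-CM turned when GC content was regressed out. It was at 15.2 and 17.4 TPM in DMSO depc, against 32.3 and 39.3 TPM in DMSO poly I:C, a rise of 2.20-fold (log2 fold change 1.09, SE 0.23, adjusted p = 0.0413). With 2-CM it was at 21.8 and 23.4 TPM with depc, against 14.3 and 14.5 TPM with poly I:C (-0.62, adjusted p = 0.0528; 0.11, adjusted p = 0.541, with GC content regressed out; -1.42 with median-of-ratios scaling). With RES it was at 65.3 and 96.2 TPM with depc, against 62.6 and 48.9 TPM with poly I:C (-0.51, adjusted p = 0.369). The groups did not overlap under any compound, with poly I:C above depc under DMSO and below it under 2-CM and RES. Set against the DMSO effect, the poly I:C effect differed by -1.70 (SE 0.33) with 2-CM and by -1.60 (SE 0.33) with RES. Those differences had unadjusted p-values of 0.000626 and 0.000957 from limma, and adjusted p-values of 0.161 and 1.0 over all genes, so neither was called. GC correction moved the first to -1.13 (adjusted p = 0.0749) and the second to -1.50 (adjusted p = 0.208), and median-of-ratios scaling moved the first to -2.66. Averaged over compounds ALDOC was at -0.01, and at 0.37 (adjusted p = 0.0209) with GC content regressed out. In these contrasts 0.0116% and 0.0% of all genes were called, and 0 members were. In each, 1 member had an unadjusted p under 0.05, against 5097 and 293 of all 17185 genes.

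The rise of ALDOC under DMSO was a call near the threshold. It was lost with FPKM, at 1.23 (adjusted p = 0.0978), and with median-of-ratios scaling, at 1.25 (adjusted p = 0.212), and it was 1.24 (adjusted p = 0.00301) with GC content regressed out. Leaving out single libraries kept it in 4 of 12 fits, with log2 fold changes of 0.95 to 1.23. In the authors' deposited table of poly I:C under DMSO, ALDOC had a log2 fold change of 1.39 with an adjusted p of 0.0789.

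The share of ALDOC in the summed TPM of ALDOA and ALDOC does not depend on the scaling of a library, and the 2 genes are near each other in GC content (55.4% and 57.3%). In DMSO it was 0.554% and 0.531% with depc and 2.35% and 1.99% with poly I:C. With 2-CM it was 0.681% and 0.614% with depc and 1.08% and 1.07% with poly I:C. With RES it was 3.65% and 3.53% with depc and 4.02% and 4.04% with poly I:C. The share was thus higher with poly I:C under all 3 compounds, although the ALDOC level itself was below that of depc under 2-CM and RES, and replicates were close together. A two-sided exact permutation test of the log2 odds within compounds gave p = 0.00926, the smallest value its 216 arrangements allow, and 0.0278 adjusted over the 6 shares tested. The adjusted p passed in 10 of 13 alternatives, which used reads in place of TPM or left out 1 library. By compound, the difference in log2 odds came to 2.02 with DMSO, 0.74 with 2-CM and 0.17 with RES. On average it was 0.98, where ALDOC itself was at -0.01 and ALDOA at -0.99, so the averaged rise followed the fall of ALDOA. This share too was taken after the levels had been seen, a choice that the adjustment over 6 shares does not cover. Against DMSO, the share with RES lay 2.77 log2 odds higher with depc and 0.93 higher with poly I:C, without overlap; the exact permutation p of 0.0556 is the smallest that 36 arrangements allow, so that design cannot pass 0.05.

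**Figure D2:**
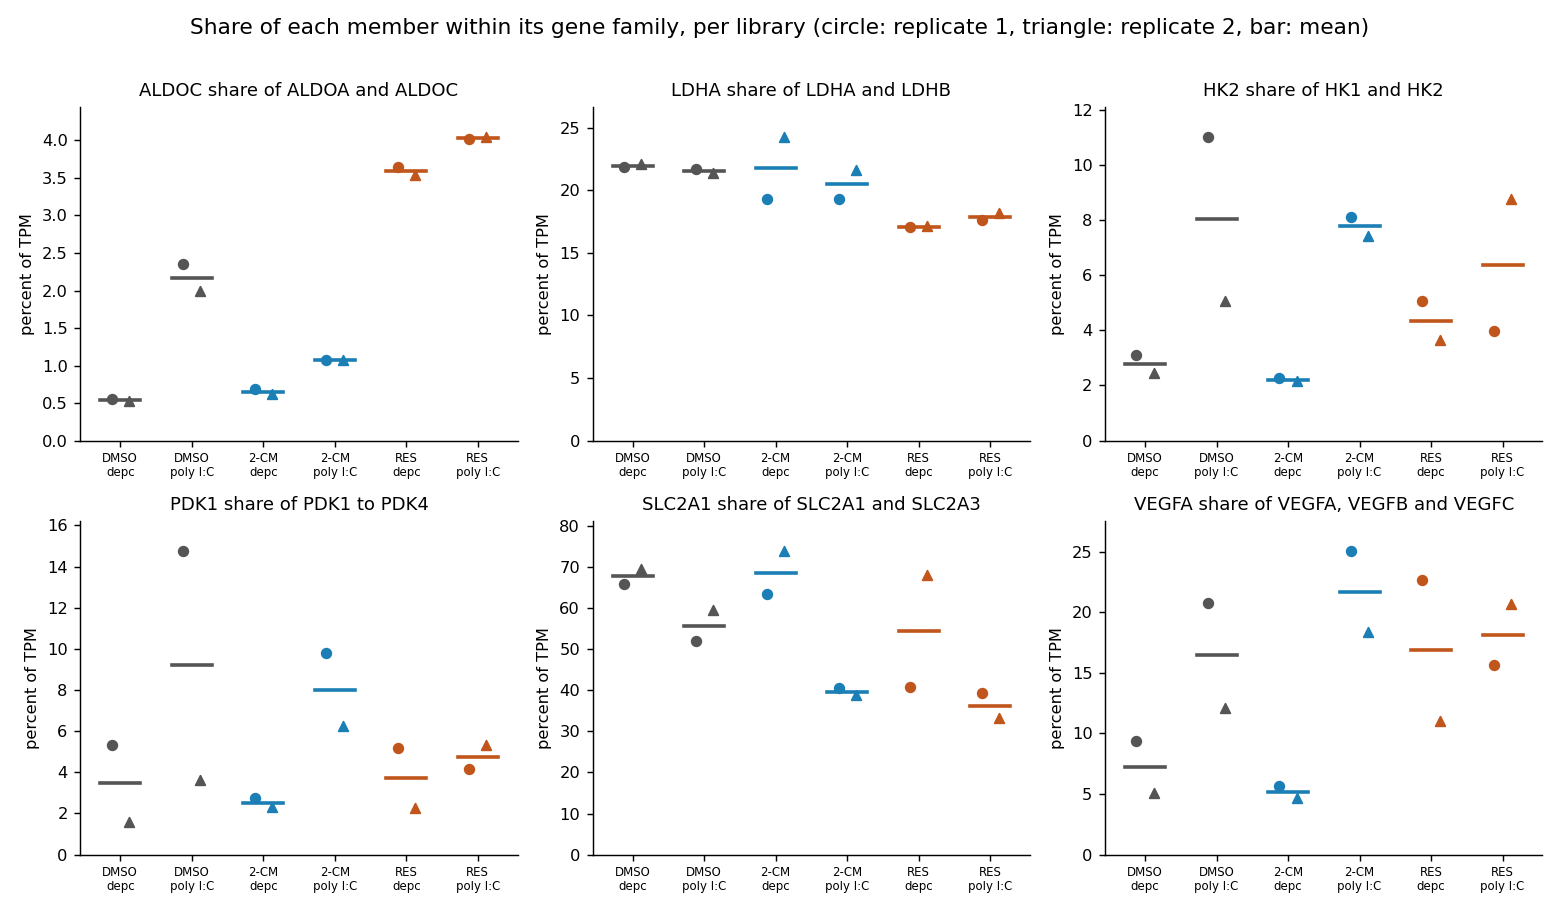
Share of each named member in the summed TPM of its gene family (y axis, percent, linear from 0) in the 12 libraries by group (x axis). Circles are replicate 1, triangles replicate 2 and bars their mean; the ALDOC share lies at 0.531 to 0.681% with depc in DMSO and 2-CM and at 3.53 to 4.04% in the RES libraries, while the LDHA share stays between 17.0 and 24.2%.

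Other shares within families were taken in the same way, all after the levels had been seen. HK2 made up 3.11% and 2.45% of HK1 and HK2 in DMSO depc and 11.0% and 5.08% in DMSO poly I:C. With 2-CM the HK2 share went from 2.28% and 2.16% to 8.13% and 7.44%, and with RES it overlapped, at 5.07% and 3.64% with depc and 3.98% and 8.77% with poly I:C. The exact permutation test within compounds gave p = 0.0185 and 0.0370 adjusted over the 6 shares, and the adjusted p passed in 8 of 13 alternatives. HK1, the constitutive hexokinase, fell under DMSO from 92.4 ± 4.67 to 48.7 ± 5.76 TPM (SD, n = 2), a called change of -0.92 in limma (adjusted p = 0.0277). The share of SLC2A1 in SLC2A1 and SLC2A3 was lower with poly I:C in both libraries of every compound, at 51.9% and 59.6% against 66% and 69.5% in DMSO, 40.5% and 38.8% against 63.5% and 73.8% with 2-CM, and 39.4% and 33.2% against 40.8% and 68.2% with RES, where one depc library lay close to the poly I:C ones. The exact permutation p was 0.00926 (adjusted 0.0278), and the adjusted p passed in 9 of 13 alternatives. The VEGFA share of VEGFA, VEGFB and VEGFC gave an exact permutation p of 0.0370 (adjusted 0.0556), and the PDK1 share of PDK1 to PDK4 gave 0.0463 (adjusted 0.0556). Genes within these 2 families differ in GC content, with VEGFA at 55.6% and VEGFB at 64.9%, and PDK1 at 40.2% and PDK2 at 58.1%. HK2 and HK1 are nearer, at 51.7% and 53.4%. The part of GC content in the shares was not tested.

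PGK1 makes the first ATP of glycolysis. It was at 189 and 165 TPM in DMSO depc, against 342 and 315 TPM in DMSO poly I:C, without overlap, a difference of 0.89 (SE 0.23) with an adjusted p of 0.0726; it passed with GC content regressed out (0.71, adjusted p = 0.0416) and in 2 of 12 fits with a library left out. With 2-CM it was at 176 and 149 TPM with depc, against 184 and 184 TPM with poly I:C. With RES it was at 160 and 95.2 TPM with depc, against 178 and 191 TPM with poly I:C. Averaged over compounds the rise was called (0.55, SE 0.13, adjusted p = 0.0180), but median-of-ratios scaling gave 0.33 (adjusted p = 0.102) and GC correction 0.17 (adjusted p = 0.227), and the call was lost in 4 of 12 fits with a library left out. The 2-CM value of 0.18 changed sign under median-of-ratios scaling (-0.66) and GC correction (-0.53, adjusted p = 0.0357), and in the authors' deposited table for 2-CM it was -0.67 (adjusted p = 5.9e-05).

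LDHA, which turns pyruvate into lactate, had replicates that lay apart. It was at 224 and 174 TPM in DMSO depc, against 404 and 201 TPM in DMSO poly I:C. With 2-CM it was at 176 and 138 TPM with depc, against 367 and 414 TPM with poly I:C, without overlap (1.32, SE 0.51, adjusted p = 0.0587). That value was 0.47 with median-of-ratios scaling and 0.69 (adjusted p = 0.108) with GC correction, genes within 1 GC point had a median of 1.28, and the authors' deposited table has 0.19. In RES it ran from 226 and 80.8 TPM with depc to 140 and 274 TPM with poly I:C, and the higher RES depc library was 2.80-fold above the lower one. LDHB, the other widely expressed subunit, varied with it, and the LDHA share of both was 21.7% and 21.4% in DMSO poly I:C against 21.8% and 22.1% in DMSO depc. Between transfections the share differed by -0.02 log2 odds on average (exact permutation p = 0.852 within compounds). It was lower in the RES libraries, at 17.0% to 18.1%, than in the DMSO libraries, at 21.4% to 22.1%, without overlap (exact permutation p = 0.0556, the smallest possible here).

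PDK1 phosphorylates and slows pyruvate dehydrogenase, the gate from glycolysis into the mitochondrion. It was at 2.81 and 1.14 TPM in DMSO depc, against 6.09 and 1.43 TPM in DMSO poly I:C. It was at 1.56 and 1.71 TPM in 2-CM depc against 4.16 and 2.87 TPM in the poly I:C libraries of 2-CM. Under RES it was at 3.31 and 1.76 TPM in depc against 2.1 and 2.38 TPM in RES poly I:C. A 4.26-fold gap between the DMSO poly I:C replicates exceeded every difference between the group means. PDK1 was called in no comparison by the limma fit of group means alone, and its value under 2-CM was 0.76 (adjusted p = 0.207), which became 1.66 with reads as CPM, 0.16 with median-of-ratios scaling and -0.26 (adjusted p = 0.523) with GC correction.

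BNIP3, a mitochondrial outer membrane protein that recruits the autophagy machinery, was at 16.2 and 9.84 TPM in DMSO depc, against 52.5 and 21.9 TPM in DMSO poly I:C. With 2-CM it was at 12.2 and 10.2 TPM with depc, against 41.3 and 34.9 TPM with poly I:C. With RES it was at 26.3 and 17.7 TPM with depc, against 20.8 and 53.6 TPM with poly I:C. The groups were apart under DMSO and 2-CM and overlapped under RES. The rise was called under 2-CM (1.68, SE 0.51, adjusted p = 0.0323, 3.41-fold) and averaged over compounds (1.22, SE 0.29, adjusted p = 0.0176), the latter being lost in 3 of 12 fits with a library left out. Under DMSO it was 1.36 with an adjusted p of 0.180, whereas the authors' deposited table gave 1.66 with an adjusted p of 0.0151. Under 2-CM, median-of-ratios scaling lowered the value to 0.87 (adjusted p = 0.0659), and GC correction gave 1.75 (adjusted p = 0.0301). BNIP3 has 29 annotated pseudogene copies, which together held 1.83 to 12.2 TPM, so reads may be split between them. With the TPM of these copies added to it, BNIP3 kept its call under 2-CM. LDHA has 5 such copies, which together held 4.15 to 30.3 TPM.

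VEGFA, the secreted growth factor that drives blood vessel growth, was at 14.2 and 8.45 TPM in DMSO depc, against 21.1 and 13.4 TPM in DMSO poly I:C. With 2-CM it was at 9.03 and 8.56 TPM with depc, against 31.8 and 23.2 TPM with poly I:C, a called rise of 3.13-fold (1.53, SE 0.34, adjusted p = 0.0273). With RES it was at 32.2 and 19.4 TPM with depc, against 22.3 and 23.2 TPM with poly I:C. The averaged rise was 0.66 (SE 0.20, adjusted p = 0.0358), with 0.57 (adjusted p = 0.416) under DMSO and -0.13 (adjusted p = 0.884) under RES, where the sign turned with scaling as CPM and with GC correction. The averaged call was lost in 8 of 12 fits with a library left out, at 0.54 to 0.73, and with no filter on low genes. Genes within 1 GC point of VEGFA had a median of -0.16 under 2-CM, and with GC regressed out VEGFA stood at 2.28 (adjusted p = 0.0171), whereas median-of-ratios scaling gave 0.73. In the authors' deposited table for 2-CM, VEGFA was at 0.41 with an adjusted p of 0.0714.

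CA9, a cell surface carbonic anhydrase and a classical marker of hypoxic tumour cells, was listed at 0 in both DMSO depc libraries and at 0.449 and 0.653 TPM in DMSO poly I:C. It was listed at 0 in all 4 libraries of 2-CM. In RES depc it was at 0.224 and 0.654 TPM, and in RES poly I:C it was listed at 0 in one library and at 0.439 TPM in the other. In the authors' deposited table for DMSO, CA9 had a mean normalised count of 14.1, a log2 fold change of 7.36 and an adjusted p of 0.0114; a fold against 0 depends on the model and sets no size. ARHGEF39 overlaps the start of CA9 on the opposite strand at 9.25 to 25.8 TPM, and strand was not stated to be used.

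The authors' deposited table for 2-CM has a median log2 fold change of 0.08 over its genes. Of its 23551 genes with an adjusted p, 10932 have one under 0.05. It puts ALDOA at -2.25 (adjusted p = 3.62e-37) and SLC2A1 at -1.63 (adjusted p = 3.97e-20). ALDOC is at -1.50 (adjusted p = 8.23e-12), BNIP3 at 0.96 (adjusted p = 2.75e-06) and PDK1 at 1.23 (adjusted p = 0.000139) in the authors' deposited table, while LDHA and HK2 have adjusted p-values of 0.462 and 0.153. In the authors' deposited table for RES, the smallest adjusted p of the 10 members is 0.999. The directions for ALDOA, SLC2A1, ALDOC and BNIP3 under 2-CM are those found from TPM. PGK1 has the opposite direction there, at -0.67 in the authors' deposited table against 0.18 from TPM, and VEGFA, which passed the test on TPM, does not pass in the authors' deposited table (adjusted p = 0.0714).

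**Figure D3:**
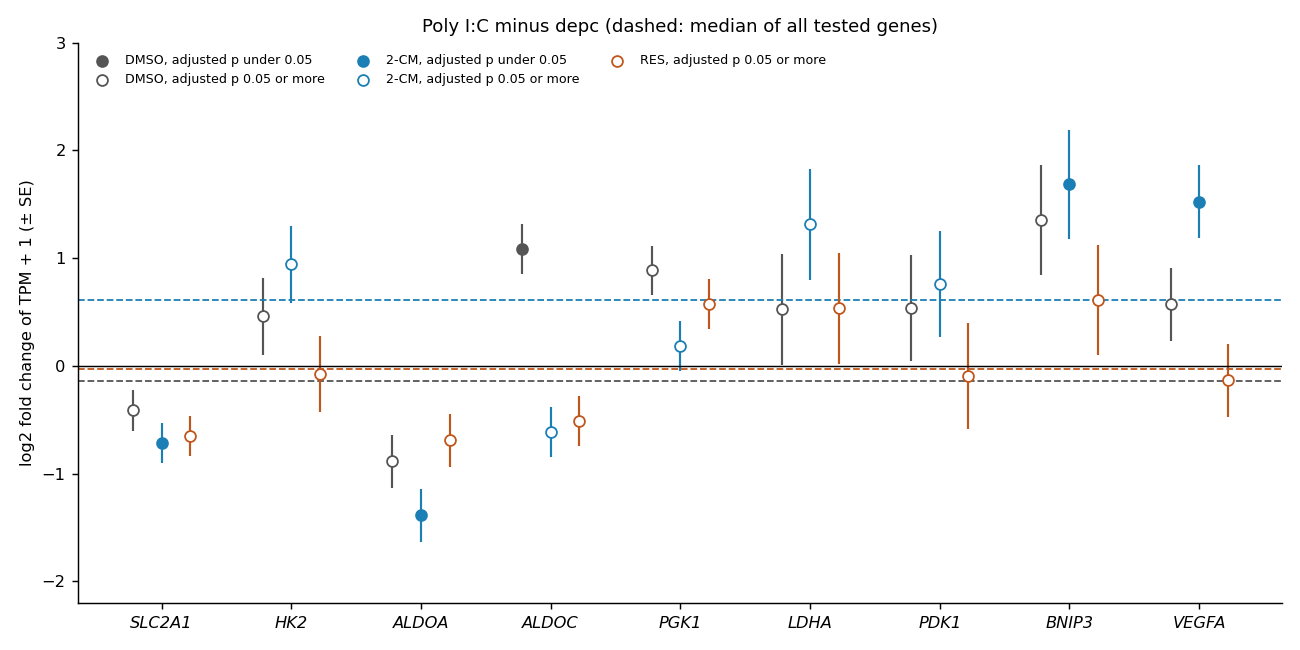
Log2 fold change of TPM + 1 with poly I:C (y axis, ± SE) for the 9 tested members (x axis) under DMSO, 2-CM and RES. Filled points have an adjusted p under 0.05, and dashed lines mark the median of all genes for each compound; SLC2A1 and ALDOA lie below 0 under all 3 compounds, and ALDOC lies above 0 under DMSO alone, before any GC correction.

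Against DMSO, RES called 1 member with depc, where 1.03% of all genes were called, and 0 with poly I:C by limma, where 0.157% were. With poly I:C, 3 members had an unadjusted p under 0.05, as had 2296 of all 17185 genes. The call was ALDOC, at 80.8 ± 21.8 TPM in RES depc against 16.3 ± 1.53 TPM in DMSO depc (SD, n = 2), a 4.96-fold difference (2.22, SE 0.23, adjusted p = 0.0133). Median-of-ratios scaling left the value at 2.04 with an adjusted p of 0.109, and with GC regressed out it was 2.15 (adjusted p = 0.000512). Without a single DMSO depc library the value was 2.13 or 2.31 (adjusted p = 0.175 and 0.170). VEGFA was next at 1.12 (SE 0.34, adjusted p = 0.152), 2.27-fold higher in RES depc, and both RES libraries lay above both DMSO libraries. So they did for 25.7% of all genes. With poly I:C, ALDOC in RES lay 1.56-fold above DMSO (0.62, adjusted p = 0.292) and PGK1 1.78-fold below it (-0.83, adjusted p = 0.173). With GC content regressed out, PGK1 passed with poly I:C (-0.87, adjusted p = 0.0410) and ALDOA, at -0.48 before, passed with depc (-0.56, adjusted p = 0.0221). The GC correction called 1.27% of all genes with poly I:C and 2.18% with depc.

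2-CM against DMSO called 0 members with depc and 0 with poly I:C by limma, where 0.0349% and 0.105% of all genes were called. The counts of members at an unadjusted p under 0.05 were 0 and 2, against 831 and 5884 of all 17185 genes. With poly I:C, ALDOC was 2.49-fold lower with 2-CM (-1.25, SE 0.23, adjusted p = 0.0905) and PGK1 1.78-fold lower (-0.83, SE 0.23, adjusted p = 0.102), both without overlap, where the median of all genes was 0.59. In that comparison 76.4% of all genes did not overlap, with 70.4% of all genes higher and 6.0% lower. Median-of-ratios scaling gave -1.99 for ALDOC and -1.61 for PGK1, and both passed with GC content regressed out, at -0.94 and -1.11 (adjusted p = 0.0304 each). The GC correction called 29.5% of all genes in that comparison, 28.9% higher and 0.559% lower. All comparisons with DMSO share the DMSO libraries, as do the differences of response.

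**Figure D4:**
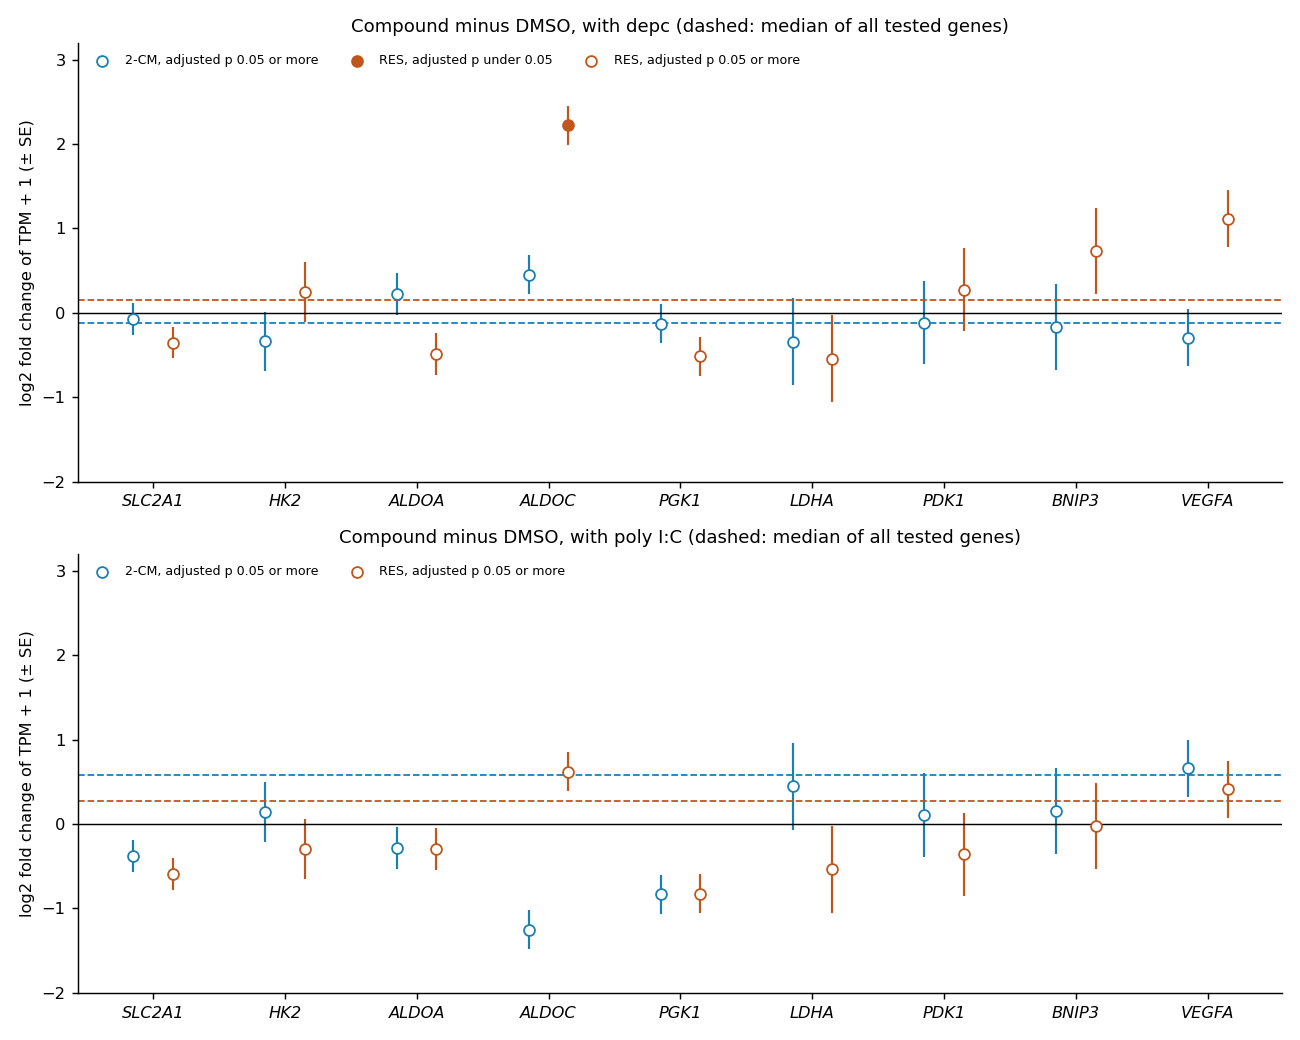
Log2 fold change of TPM + 1 of each compound against DMSO (y axis, ± SE) for the 9 tested members (x axis), with depc above and with poly I:C below. Filled points have an adjusted p under 0.05 and dashed lines are the medians of all genes; ALDOC in RES depc, at 2.22, is the single called point.

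Other genes of these pathways were read as lists. Every list call under 2-CM was lost when any single 2-CM library was left out, as were nearly all calls over all genes. Every list call under DMSO was lost without any single DMSO library. The DMSO calls of GPI, HK1 and DDIT4 were kept in 4 of 12 fits and that of NDRG1 in 6. Some libraries outside the comparison thus mattered too. Of the 17 other glycolytic enzymes and carriers, all tested, poly I:C called 0 higher and 3 lower under DMSO, where 0.797% of all genes were called higher and 3.28% lower. That balance over all genes turned with scaling, from 137 higher and 564 lower to 98 and 29 with median-of-ratios scaling and 88 and 37 with FPKM, and with either the list had 0 calls. These were GPI, the isomerase after hexokinase, at 65.3 ± 7.90 against 132 ± 5.82 TPM (SD, n = 2; -1.01, adjusted p = 0.0224), HK1, given above, and PFKP, a phosphofructokinase (-0.75, adjusted p = 0.0284). Under 2-CM 1 was called higher and 9 lower, where 37.5% of all genes were called higher and 11.8% lower. The list's median was -0.62 there and that of all genes 0.61. With GC content regressed out the list's median was 0.16, with 3 called higher and 2 lower. That correction called 36.5% of all genes higher and 1.83% lower. PFKL, the liver-type phosphofructokinase, fell 2.54-fold (-1.32, adjusted p = 0.0247) and the lactate exporter SLC16A3 fell 2.45-fold (-1.27, adjusted p = 0.0260), whereas SLC16A1, the other lactate carrier, rose from 7.13 to 38.8 TPM (2.29, adjusted p = 0.0281). Genes within 1 GC point of these 3 had medians of -0.66, -0.64 and 1.12, in the same directions. ENO2, the neuronal enolase, was the list's single call with RES against DMSO in depc, at 211 ± 24.5 against 78.9 ± 2.99 TPM (1.40, adjusted p = 0.0163), beside ALDOC. That call of ENO2 was lost in 6 of 12 fits with a library left out, those without a DMSO depc, RES depc or 2-CM poly I:C library (1.28 to 1.52), and with FPKM, at 1.39 (adjusted p = 0.0505), and median-of-ratios scaling, at 1.21 (adjusted p = 0.279).

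Of 16 tested among 18 other hypoxia-induced genes, poly I:C called 2 higher and 0 lower under DMSO, where, as above, 0.797% and 3.28% of all genes were called. NDRG1, a gene long used as a hypoxia marker, rose from 5.77 ± 0.0886 to 21.6 ± 2.43 TPM (1.73, adjusted p = 0.0186), and DDIT4, an inhibitor of mTORC1, rose from 24.9 ± 1.75 to 51.8 ± 2.96 TPM (1.03, adjusted p = 0.0279), all SD with n = 2. The DDIT4 call was lost with FPKM, CPM, upper-quartile and median-of-ratios scaling (1.19, adjusted p = 0.161, with the last), which NDRG1 passed (1.90, adjusted p = 0.0469, with the last). Under 2-CM 10 were called higher and 1 lower, where 37.5% and 11.8% of all genes were, with a median of 1.48 against 0.61 for all genes. Median-of-ratios scaling gave 5 higher and 2 lower, where it called 20.3% of all genes higher and 23.5% lower. PLOD2, a collagen lysyl hydroxylase, rose 7.28-fold (2.55, adjusted p = 0.0302), where genes of like GC content had a median of 1.97, and INSIG2, which holds back sterol synthesis, rose 9.22-fold (2.48, adjusted p = 0.0274; like GC 1.95). The gene called lower was ANGPTL4, a secreted inhibitor of lipoprotein lipase, at 4.02 ± 0.622 against 8.87 ± 0.638 TPM (SD, n = 2; -0.98, adjusted p = 0.0330; like GC -0.52). NDRG1, in contrast, was at 6.43 and 5.19 TPM in 2-CM depc against 4.87 and 5.73 TPM in 2-CM poly I:C. Under RES 0 of the 16 were called by limma, where 0.442% of all genes were. There 2 of the 16 had an unadjusted p under 0.05, as had 2409 of all 17185 genes.

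Of the 8 HIF subunits and oxygen sensors, poly I:C called 0 under DMSO and 0 under RES by limma (0 and 0 at an unadjusted p under 0.05), and 4 higher and 1 lower under 2-CM, where 37.5% of all genes were called higher and 11.8% lower, the shares to set beside the next lists too. Median-of-ratios scaling left 1 higher and 2 lower, where it called 20.3% of all genes higher and 23.5% lower, shares that hold for the next list too. Of all 17185 genes, 3394 under DMSO and 2409 under RES had an unadjusted p under 0.05, for this list and the next ones. HIF1A mRNA, which encodes the regulated subunit, was at 49.2 and 24.2 TPM in DMSO depc, against 66 and 15.1 TPM in DMSO poly I:C. Under 2-CM it rose from 15.6 ± 5.03 to 108 ± 12.2 TPM (SD, n = 2; 2.75, adjusted p = 0.0323), where genes of like GC content had a median of 1.83. EGLN1 and EGLN2, hydroxylases that mark HIF for degradation, went in opposite directions under 2-CM, at 1.77 (adjusted p = 0.0407) and -1.04 (adjusted p = 0.0451). Of 11 genes of pyruvate entry into mitochondria, 9 were called higher and 1 lower under 2-CM, and 0 under DMSO and 0 under RES by limma (1 and 2 at an unadjusted p under 0.05). The list's median under 2-CM was 1.65, and median-of-ratios scaling left 5 higher and 1 lower. MPC1, a subunit of the pyruvate carrier, rose 5.85-fold (2.48, adjusted p = 0.0270), PDHX, a component of pyruvate dehydrogenase, rose 4.36-fold (1.83, adjusted p = 0.0275), and PDK2, a kinase like PDK1, fell 2.13-fold (-1.05, adjusted p = 0.0293). Of 7 tested genes of the VEGF family and its receptors, 1 was called higher and 2 lower under 2-CM, the latter being VEGFB (-0.76, adjusted p = 0.0335) and PGF (-0.88, adjusted p = 0.0317), against the rise of VEGFA, and 0 under DMSO and RES by limma (2 and 1 at an unadjusted p under 0.05). Medians at like GC content under 2-CM were 1.02 for EGLN1, -0.42 for EGLN2, 1.38 for MPC1, 1.26 for PDHX, -0.39 for PDK2, -0.67 for VEGFB and -0.38 for PGF. Of the 14 list genes named under 2-CM, the 7 called higher kept their call with GC content regressed out. The 7 called lower (PFKL, SLC16A3, EGLN2, ANGPTL4, PDK2, PGF and VEGFB) lost it, with values of -0.13 to 0.43. Over all genes the same correction left 36.5% called higher but only 1.83% lower, so this split is also that of all genes. With median-of-ratios scaling the 7 lower kept their call, at -2.17 to -1.60, and of the 7 higher EGLN1 lost it. That scaling called 20.3% of all genes higher and 23.5% lower.

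**Figure D5:**
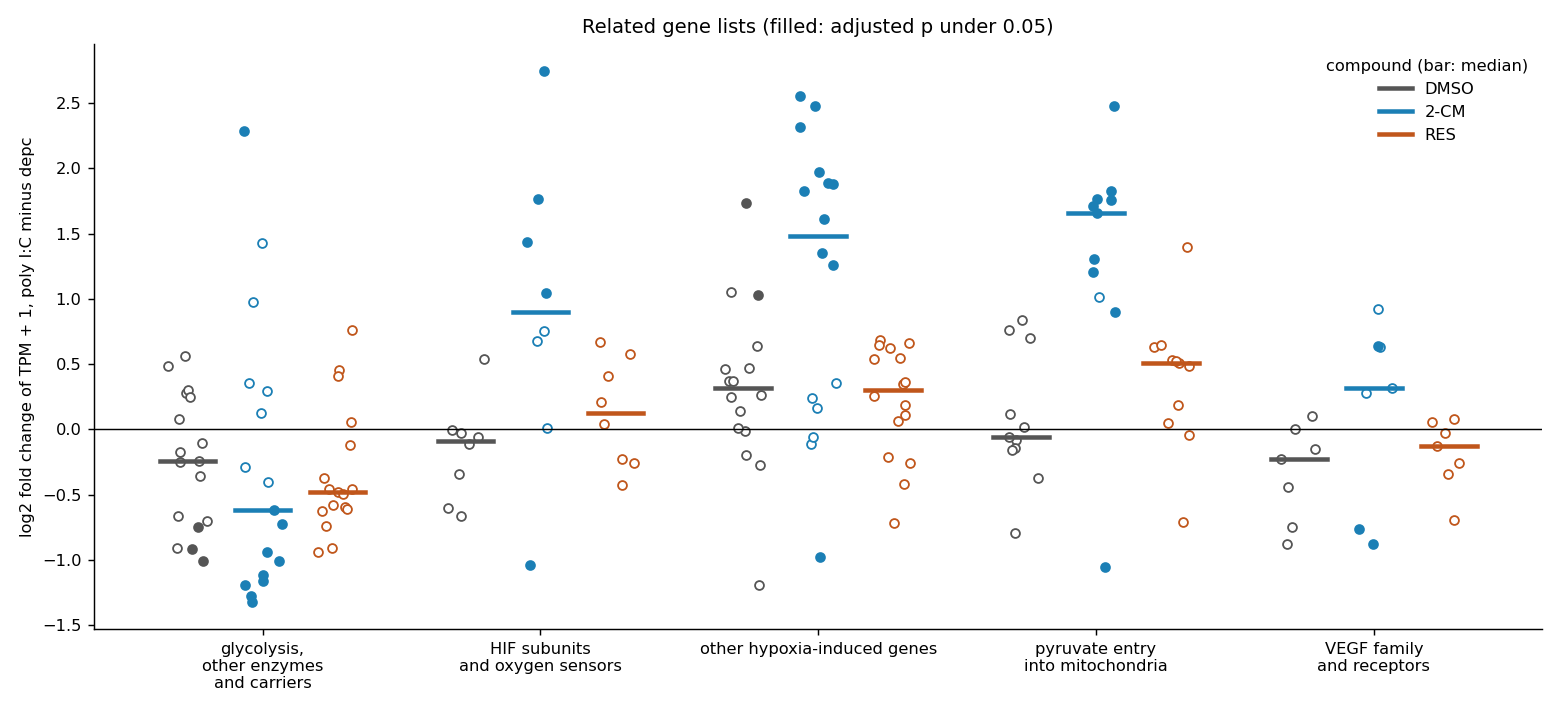
Log2 fold change of TPM + 1 with poly I:C (y axis) of each tested gene of the 5 lists (x axis) under DMSO, 2-CM and RES. Filled points have an adjusted p under 0.05 and bars are medians; under 2-CM the glycolysis list has a median of -0.62 and the other hypoxia-induced genes 1.48.

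Transcripts were estimated less evenly than genes. SLC2A1 had 94.4 to 99.0% and PGK1 88.6 to 99.7% of its TPM on 1 annotated transcript, and in ALDOA 2 transcripts of like start held 41.3 to 52.3% and 39.1 to 52.5%. The leading ALDOC transcript ranged from 20.6 to 93.1% and that of PDK1 from 0 to 70.8%, also between replicates, so no change of isoform was read from them. The leading LDHA transcript was listed at 0% in replicate 2 of 2-CM poly I:C, where a second one took 74.3%. AC093512.2, which spans ALDOA on the same strand, was at 72.4 and 159 TPM in RES depc and at 6.40 to 38.1 TPM in the other libraries, and ALDOA reads may be split with it.

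Across the 12 libraries, which fall into 6 groups and differ in depth, the members did not all follow their mean. With their mean standardised level, to which each contributes, HK2 had a Pearson r of 0.93, PDK1 of 0.90, BNIP3 of 0.85, LDHA of 0.74, VEGFA of 0.69 and PGK1 of 0.58, but ALDOC of 0.03, SLC2A1 of -0.43 and ALDOA of -0.72. ALDOA and SLC2A1 tracked each other (r = 0.92), and ALDOA ran against BNIP3 (r = -0.94). Among 10176 other genes at a mean TPM of 5 or more, those nearest to the members' mean were SRP14 (r = 0.90), PDIA5 (0.89), APOO (0.89), AK6 (0.88) and PARK7 (0.87). In each of the 6 groups the members' mean was higher in the replicate on the same side of the common axis of replicate differences. In DMSO poly I:C it was 0.85 and 0.04. The part of that axis in these correlations was not tested, and they are descriptions over libraries of 6 groups.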

How the data were processed

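The 10 members and all gene lists were chosen with earlier results of these data known. The labels alone gave groups and replicate numbers. Per the submitters' processing notes, bcl2fastq 2.20, HISAT2 2.1.0, StringTie and DESeq2 were used with build hg38. StringTie 2.0.4 was run by the authors on the annotated transcripts of GENCODE 32, with no strand option, per the file headers; the deposited files give coverage, FPKM and TPM per transcript. The authors' deposited result tables, 1 per compound, hold a mean of normalised counts (a score here), log2 fold changes with standard errors, and a p-value with its adjusted value, per the file headers.

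Gene TPM is the sum over transcripts (Python 3.11.15). In R 4.3.3, limma 3.58.1 fitted 6 group means to log2(TPM + 1) over all 12 libraries with a variance trend, for genes reaching a TPM of 1 in 2 or more libraries; 6 residual and 2.74 prior degrees of freedom resulted. The fit was run on simulated data whose noise was independent between genes. The real replicates differed along a common axis, so that run cannot check the rate of false calls here. Shares within families were compared by exact permutation within compounds, and the closing section gives the effect of other units, scalings, filters, a GC correction and libraries left out. Positions are GRCh38 as deposited; of 49338 genes sharing ID and version with GENCODE 44, 49337 had the same position. Depth was 31.2 to 49.4 M reads estimated from coverage. Named genes are all members and, for each list and comparison, the top 2 called genes by size of change each way, at a mean TPM of 5 or more; PFKP, CA9's neighbour and marker genes were named after their values were seen. Replicate numbers were not used to pair the samples in the main fit. RES poly I:C ran against the other groups (5 correlations of replicate differences from -0.80 to -0.31). The 10 correlations among the other 5 groups were all positive (0.15 to 0.76). Whether the numbers pair the samples cannot be settled from these values.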

Additional observations from a re-analysis of the deposited data

Results flagged for a closer look

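For ALDOC, every poly I:C library lay above every depc library under DMSO and below every one under 2-CM and RES. The effect under 2-CM minus that under DMSO was -1.70 on the log2 scale (adjusted p = 0.161 in limma), and the effect under RES minus that under DMSO was -1.60 (adjusted p = 1.0), so neither difference passed the correction over all genes. With GC content regressed out, the value under 2-CM was 0.11 (adjusted p = 0.541), no longer opposite to that under DMSO, and the 2-CM difference was -1.13 (adjusted p = 0.0749); with median-of-ratios scaling they were -1.42 and -2.66.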

How the results depend on the processing

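Counts of members called are given. A single library left out leaves 1 library in a group, and counts are not given for such fits. The counts moved in every comparison under some alternative, as given below. The calls over all genes moved in these fits too. The single call under DMSO was lost (0 members) with FPKM, CPM, upper-quartile or median-of-ratios scaling, and with no filter. It was also lost with mitochondrial genes left out, only the groups compared, and the replicate block. The block, on numbers not shown to pair the samples, gave 4 under 2-CM and 5 on average. It called 51.8% and 33.3% of all genes there. GC correction gave 3 under DMSO, 2 for 2-CM against DMSO with poly I:C, and for RES against DMSO 2 with depc and 1 with poly I:C, where it called 4.60%, 29.5%, 2.18% and 1.27% of all genes. No filter gave 0 under 2-CM and 3 on average, where it called 1.61% and 9.14% of all genes. Only the groups compared gave 8 under 2-CM (69% of all genes) and 0 for RES with depc (0% of all genes). Upper-quartile and median-of-ratios scaling also gave 0 for the latter, where they called 0.221% and 0.0756% of all genes. A covariate built from the replicate differences themselves, which shrinks the spread by construction and called 0.716% to 75.1% of all genes, gave 8 under DMSO, 8 under 2-CM, 6 under RES, 5 and 1 for the differences of response (2-CM, RES), 2 and 6 for 2-CM against DMSO (depc, poly I:C), and 7 and 5 for RES. Of the 4 calls under 2-CM, each was lost without any single 2-CM library (lowest adjusted p 0.0792). ALDOC under DMSO was lost without any single DMSO or 2-CM library, and ALDOC with RES without either DMSO depc or 2-CM poly I:C library (adjusted p 0.0535 to 0.175). Averaged, VEGFA was lost in 8 of 12 such fits, PGK1 in 4, BNIP3 in 3, and ALDOA and SLC2A1 in 0. The ALDOC, HK2 and SLC2A1 shares kept unadjusted p-values of at most 0.0463 in all 13 alternatives each, but adjusted over the 6 shares they passed in 10, 8 and 9 of them (highest adjusted p 0.0556, 0.0926 and 0.0741); the LDHA share changed sign in 2 of them (range with a library left out -0.0907 to 0.0499). The remaining causes were not tested. CA9, below a TPM of 1 in every library, was left out by the filter on low genes.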
